A study of Mus musculus with 12 samples.

Results

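Solute carriers are the membrane proteins, grouped in numbered Slc families, that move amino acids, sugars, ions, metabolites and transmitters across the plasma membrane, the mitochondrial inner membrane and the membranes of vesicles and lysosomes. The genes described here are those whose symbol begins with Slc, a family number and a letter, that had at least 1 array clone with a value in every sample and no other gene on that clone, with clones of 1 gene averaged. Slc1a3, the astrocytic glutamate carrier, was left out of the set. There were 94 such genes among 6427 measured genes and 9514 tested features, a feature being either such a gene or a single probe with no gene or several. All but Slc9a3r2 belong to families of carriers or carrier subunits, which makes 93. Slc9a3r2 encodes a scaffold protein that regulates sodium-proton exchange and that the name pattern takes in. By substrate there were 21 genes of amino acid families, 8 of sugar families, 15 mitochondrial carriers, 22 ion and metal carriers, 3 of the families that fill vesicles, and 24 with other organic substrates.

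The 12 samples are total RNA of whole brains of C57Bl/6j mice at postnatal day 10, in 3 genotypes with 4 samples each, which the design text calls biological replicates. Gja9_null mice are Gja9 (-/-), with no working copy of Gja9, Gja9_het mice are Gja9 (+/-), with 1, and wildtype mice have both. Gja9 is the former name of Gjd2, which encodes connexin36, the gap junction protein of neuronal electrical synapses. The labels name no conditional allele, Cre, sex or litter, and no probe of the array table named Gjd2, so the targeted transcript itself was not read out.

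Values are log2 signals that take the average signal of the same sample as 0, so that 1 unit is a doubling. Values of different genes come from different clones, so no gene's level is set against another's. Extracts of 2 samples of a genotype shared each spotted cDNA array in different colours. Each genotype therefore lay on 2 arrays, samples 1 and 2 on array 1 and samples 3 and 4 on array 2, as read from the values. The number of arrays limits the precision: the median gap between the 2 arrays of a genotype over the 94 genes was 0.45 in Gja9_null, 0.28 in Gja9_het and 0.35 in wildtype. The corresponding gap between the colours was 0.13, 0.09 and 0.11. In whole brain RNA, fewer cells of a type and less RNA per cell cannot be told apart.

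Carriers of the same substrate divide the work between cell types in brain. Glucose enters through one family member at the vessel wall and astrocyte and another at the neuron. Lactate leaves glycolytic cells and enters oxidative ones through different monocarboxylate carriers. Glutamine passes from astrocytes to neurons through release carriers on one side and uptake carriers on the other, and synaptic vesicles are loaded by their own proton-coupled families.

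The first comparison asks which carrier transcripts differ when both copies of Gja9 are lost. Slc7a6 was higher in Gja9_null brains, and no other carrier gene passed the test. That call lay at the threshold (limma adjusted p = 0.0496) and rested on 1 clone. At an adjusted p under 0.05, 1 of 94 genes was called against wildtype, while 0.326% of all features were. At an unadjusted p under 0.05 there were 14 genes, 7 of them higher and 7 lower in Gja9_null, and 11.6% of all features passed that mark, 2.41% higher and 9.22% lower. The 7 higher ones were Slc7a6, Slc7a7, Slc38a3, Slc6a6, Slc2a8, Slc37a4 and Slc35f5, 4 of them in amino acid families. The 7 lower ones were Slc16a3, Slc11a2, Slc26a11, Slc4a5, Slc25a15, Slc22a15 and Slc45a4. In 26 of the 94 genes the Gja9_null and wildtype samples did not overlap, 10 higher and 16 lower, against 23.1% of all features, 7.52% higher and 15.6% lower. The size of the difference was over 1 in 6 genes, and in 7.2% of all features. Of the 94 differences 38 were above 0, as were 41.1% of all features. The median difference over the 94 genes was -0.14, and over all features it was -0.10.

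In heterozygotes 0 of 94 genes were called against wildtype, as were 0% of all features by limma. Slc7a6 and Slc25a23, a calcium-regulated carrier of ATP and phosphate in mitochondria, passed an unadjusted p under 0.05, both higher in Gja9_het, and 2.19% of all features did, 1.67% higher and 0.515% lower. Samples did not overlap in 16 genes, 9 of them higher and 7 lower in Gja9_het, against 14.8% of all features, 8.67% higher and 6.09% lower. The size was over 1 in Slc7a6 alone among the 94, and in 1.14% of all features, and 51 differences were above 0, as were 54.4% of all features. The median difference was 0.04 over the 94 genes and 0.03 over all features. Between Gja9_null and Gja9_het, 0 of 94 genes were called, with 0.273% of all features. At an unadjusted p under 0.05 there were 15, 5 higher and 10 lower in Gja9_null, against 15% of all features, 3.64% higher and 11.3% lower. Samples did not overlap in 27 genes, 10 higher and 17 lower, against 32.7% of features, 10.2% higher and 22.5% lower. The size was over 1 in 7 genes and 8.66% of features, and 38 differences were above 0, as were 36.9% of features. The median difference was -0.10 over the 94 genes and -0.17 over all features. The F-test over the 3 genotypes called 0 of the 94 genes, with 14 at an unadjusted p under 0.05, where 0.326% and 10.9% of all features passed. All comparisons with wildtype share its 4 samples.

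**Figure D1:**
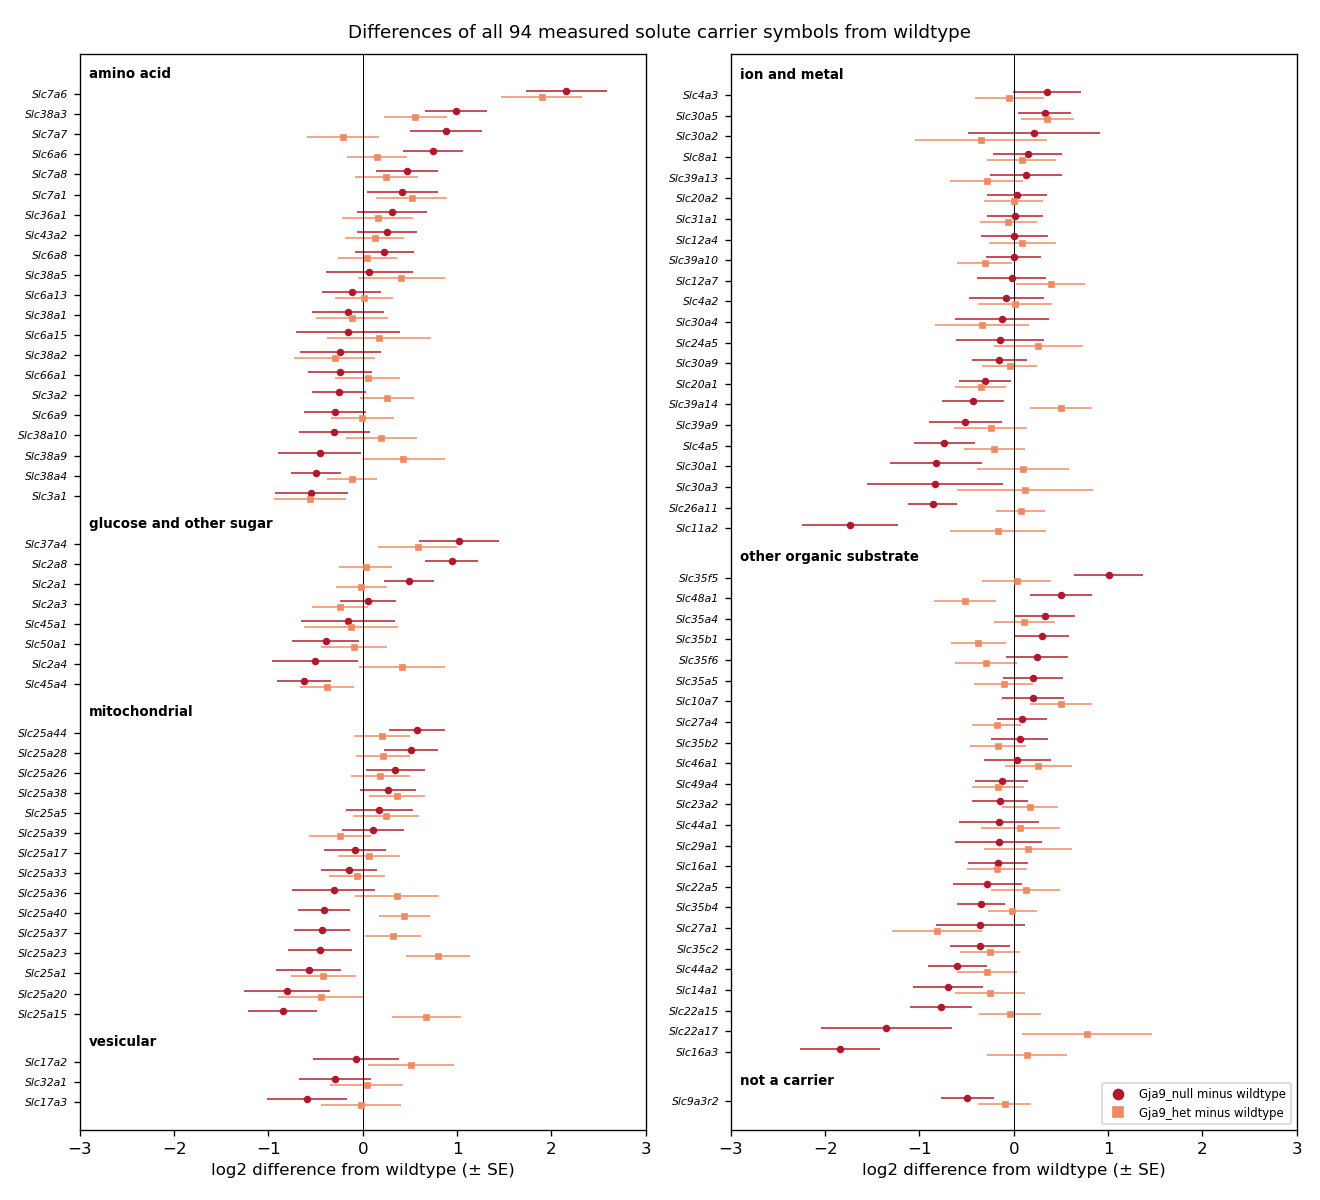
Log2 difference from wildtype (± SE of the fit) of each of the 94 genes, grouped by substrate and sorted within a class by the Gja9_null difference; circles are Gja9_null minus wildtype and squares Gja9_het minus wildtype. Slc7a6 lies far right in both, at 2.16 and 1.90, and Slc16a3 and Slc11a2 lie far left in Gja9_null alone, at -1.84 and -1.73.

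Among amino acid carriers, Slc7a6 encodes a light chain of the y+L exchanger, which swaps cationic amino acids such as arginine for neutral ones and reaches the membrane only with the heavy chain Slc3a2. In Gja9_null samples 1 to 4 its log2 signal was 3.33, 3.42, 3.53 and 3.55, in Gja9_het samples 3.56, 3.65, 2.76 and 2.80, and in wildtype samples 2.15, 2.15, 0.39 and 0.50. Every mutant sample lay above every wildtype sample, and the Gja9_het samples spanned the Gja9_null ones. The difference from wildtype was 2.16 ± 0.43 in Gja9_null (SE, adjusted p = 0.0496) and 1.90 ± 0.43 in Gja9_het (adjusted p = 1, unadjusted p = 0.00053). With the replicate number as a block in place of dye and array, which takes the colours of an array as independent, the Gja9_het difference had an adjusted p of 0.0345, and 1 carrier gene and 135 features were called in that comparison, against 0 and 0. The difference of Gja9_null from Gja9_het was 0.26 ± 0.43 (adjusted p = 0.800). The arrays lay 0.16 apart in Gja9_null and 0.82 in Gja9_het, against 1.70 in wildtype. The SE of 0.43 comes from a fit with 1 array correlation for all features, so it need not reflect the array gaps of this gene. The gene rests on 1 clone. The call lies at the threshold: it ended on leaving out any 1 sample (adjusted p between 0.0636 and 0.0922) and on array means (adjusted p = 0.179). It also ended with quantile normalization, with local centring, which subtracts the median deviation of neighbouring probe numbers, without the dimmest probes, with each probe tested alone, without the first Gja9_null array and with only these genotypes in the fit (adjusted p between 0.0512 and 0.205).

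Slc3a2, the heavy chain that Slc7a6 and Slc7a7 need, did not pass the test. Its mean log2 signal over 3 clones was -1.34, -1.39, -0.68 and -0.61 in Gja9_null, -0.55, -0.60, -0.39 and -0.45 in Gja9_het, and -0.67, -0.68, -0.85 and -0.84 in wildtype. The first Gja9_null array lay below all other samples, and the Gja9_het samples lay above all wildtype ones. The differences from wildtype were -0.25 ± 0.29 in Gja9_null and 0.26 ± 0.29 in Gja9_het. Clones of Slc3a2 went apart in the comparison of Gja9_null with wildtype, at -1.22 ± 0.46, 0.63 ± 0.39 and -0.16 ± 0.37. Slc3a1, the other heavy chain, which carries cystine and dibasic amino acids with a different partner, stood at -0.54 ± 0.39 in Gja9_null and -0.56 ± 0.39 in Gja9_het.

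Slc7a7, the second y+L light chain, had 0.11, 0.30, -0.28 and -0.22 in Gja9_null, -1.38, -1.35, -0.90 and -0.84 in Gja9_het, and -1.10, -1.26, -0.50 and -0.77 in wildtype. All Gja9_null samples lay above all others, while Gja9_het and wildtype overlapped. The Gja9_null difference was 0.89 ± 0.38 from wildtype (adjusted p = 0.393) and 1.10 ± 0.38 from Gja9_het (adjusted p = 0.211). After local centring these were 0.47 and 0.58. In Slc7a6 the heterozygotes lay with Gja9_null, and in Slc7a7 with wildtype; whether the light chains differ in this was not tested.

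Slc38a3 encodes the system N carrier through which astrocytes release glutamine. Its signal was -0.35, -0.31, -0.89 and -0.88 in Gja9_null, -0.74, -0.74, -1.23 and -1.44 in Gja9_het, and -1.45, -1.57, -1.74 and -1.63 in wildtype. Gja9_null lay above wildtype without overlap, and Gja9_het reached down close to the highest wildtype sample. The difference from wildtype was 0.99 ± 0.33 in Gja9_null (adjusted p = 0.268) and 0.56 ± 0.33 in Gja9_het. Of 7 astrocyte markers listed, 4 were measured, and their summed linear signal ran between 13.1 and 15.6 in Gja9_null, between 8.82 and 11.3 in Gja9_het and between 8.21 and 11.6 in wildtype. Such a sum, here and below, weighs each marker by the signal of its clones and is no measure of the cell type. Within that list the members went apart in Gja9_null: Fabp7 stood at 1.66 ± 0.67 and Slc1a3 at 0.90 ± 0.31, while Gja1 stood at -0.18 ± 0.41 and Aldoc at -0.24 ± 0.31. In Gja9_het Fabp7 stood at 1.75 ± 0.67, Slc1a3 at -0.49 ± 0.31, Gja1 at -0.37 ± 0.41 and Aldoc at -0.27 ± 0.31. The wildtype samples of Fabp7 spread widely, with an SD of 1.71. Their part in the Slc38a3 values was not tested. Slc38a1 and Slc38a2, system A carriers through which neurons take up glutamine, stood at -0.15 ± 0.38 and -0.24 ± 0.43 in Gja9_null, and Slc38a2 at 0.31 after local centring. The 3 clones of Slc38a1 gave 0.36, -0.26 and -0.57. Glul, which makes glutamine in astrocytes, stood at 0.36 ± 0.34 in Gja9_null and -0.07 ± 0.34 in Gja9_het.

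Slc6a6, the taurine carrier, had 0.18, 0.29, 0.01 and -0.17 in Gja9_null, -0.51, -0.63, -0.44 and -0.50 in Gja9_het, and -0.76, -0.59, -0.63 and -0.68 in wildtype. Gja9_null lay above both other genotypes without overlap. The difference from wildtype was 0.74 ± 0.32 (adjusted p = 0.392), with both clones above 0 at 0.66 and 0.82. After local centring it was 0.37. Slc6a8, the creatine carrier, stood at 0.23 ± 0.31 in Gja9_null and 0.05 ± 0.31 in Gja9_het. Slc6a9, the glial glycine carrier GlyT1, stood at -0.30 ± 0.33 and 0.00 ± 0.33, and its 2 clones agreed in Gja9_null at -0.30 and -0.29.

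Slc38a9, a lysosomal carrier that senses arginine for the growth kinase mTORC1, had -1.47, -1.26, 0.07 and -0.29 in Gja9_null, 0.33, 0.24, 0.05 and -0.03 in Gja9_het, and -0.13, -0.14, -0.40 and -0.45 in wildtype. The first Gja9_null array lay below wildtype and the second reached above it, while all Gja9_het samples lay above it. The Gja9_null difference was -0.46 ± 0.44, and 0.31 after local centring. The other 10 amino acid carriers differed from wildtype by -0.50 to 0.47 in Gja9_null, 5 of them above 0, and by -0.12 to 0.52 in Gja9_het, 9 of them above 0. They include Slc7a1, the main arginine uptake carrier, whose 3 clones were all above 0 in Gja9_null at 0.64, 0.50 and 0.11. They also include Slc7a8, Slc36a1, Slc38a4, Slc38a5, Slc38a10, Slc43a2, Slc66a1, Slc6a13 and Slc6a15. Over all 21 genes the median difference was -0.12 in Gja9_null and 0.15 in Gja9_het, and 0.23 and 0.05 after local centring, which turned the sign in Gja9_null. Against wildtype, 15 of 21 were above 0 in Gja9_het, where 54.4% of all features were.

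**Figure D2:**
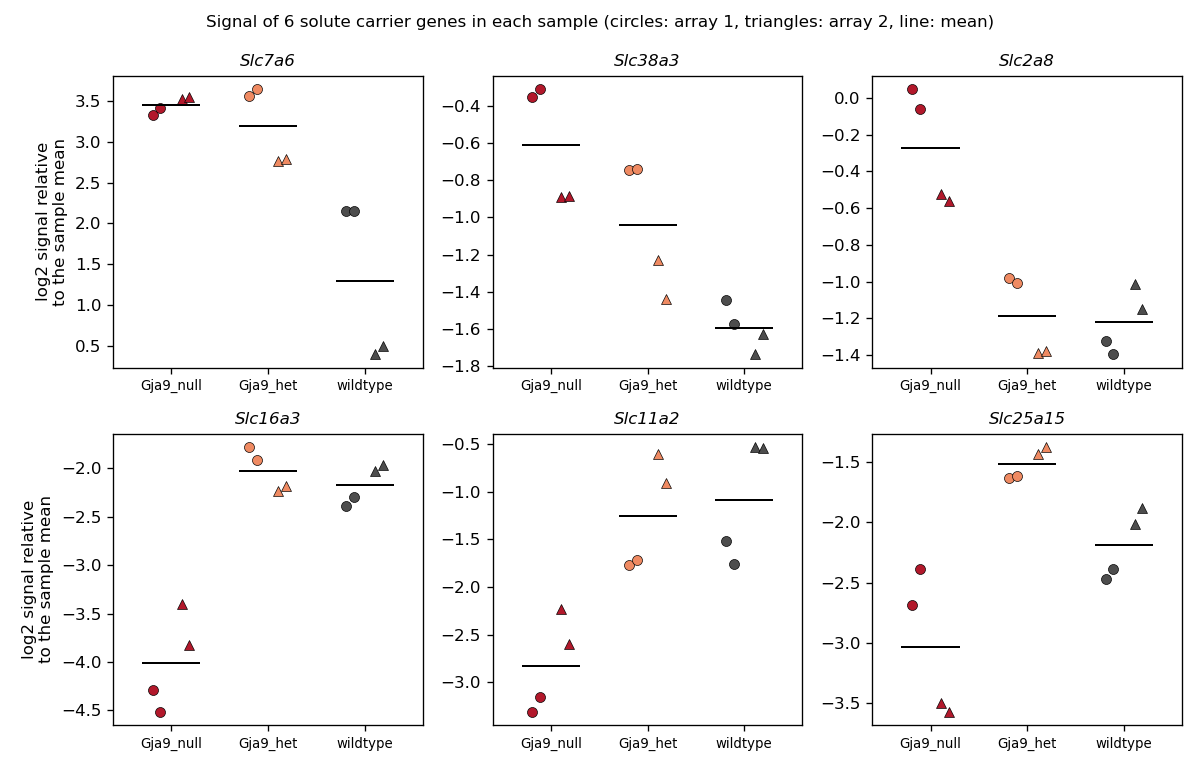
Log2 signal relative to the sample mean of 6 carrier genes in each sample; circles are samples 1 and 2 (array 1), triangles samples 3 and 4 (array 2), and the line is the mean of 4 samples. In Slc7a6 the Gja9_het samples lie with Gja9_null, in Slc2a8, Slc16a3 and Slc11a2 they lie with wildtype, and in Slc25a15 they lie above both. The colours of an array lie close together and the arrays of a genotype often apart.

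Of the 8 sugar carriers, 0 were called in any comparison, and against wildtype 3 had an unadjusted p under 0.05 in Gja9_null, 2 higher and 1 lower. Of all features 2.41% were higher and 9.22% lower at that mark. Slc2a8, the intracellular hexose carrier GLUT8, had 0.05, -0.06, -0.52 and -0.56 in Gja9_null, -0.98, -1.005, -1.39 and -1.38 in Gja9_het, and -1.32, -1.40, -1.01 and -1.15 in wildtype. All Gja9_null samples lay above all samples of the other genotypes, which overlapped. The difference was 0.94 ± 0.28 from wildtype (adjusted p = 0.206) and 0.91 ± 0.28 from Gja9_het (adjusted p = 0.165), and 0.58 from wildtype after local centring.

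Slc2a1, the glucose carrier GLUT1 of the blood-brain barrier and astrocytes, had 0.53, 0.55, 0.44 and 0.40 in Gja9_null, -0.27, -0.22, 0.18 and 0.19 in Gja9_het, and -0.05, -0.13, 0.13 and 0.01 in wildtype. Gja9_null again lay above both without overlap, by 0.49 ± 0.27 from wildtype (adjusted p = 0.518) and 0.51 ± 0.27 from Gja9_het. Both of its clones were above 0, at 0.31 and 0.67. Of 5 vessel wall markers 2 were measured: Cldn5 stood at -0.10 ± 0.32 and Tek at -0.55 ± 0.30 in Gja9_null. Slc2a3, the neuronal glucose carrier GLUT3, stood at 0.06 ± 0.30 in Gja9_null and -0.24 ± 0.30 in Gja9_het.

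Slc37a4, which takes glucose 6-phosphate into the endoplasmic reticulum, had 0.12, 0.14, -0.75 and -0.82 in Gja9_null, -0.91, -0.92, -0.57 and -0.65 in Gja9_het, and -0.67, -0.56, -2.14 and -1.99 in wildtype. The genotypes overlapped and the wildtype arrays lay 1.45 apart. The Gja9_null difference was 1.02 ± 0.42 (adjusted p = 0.376). Slc2a4, the insulin-regulated carrier GLUT4, stood at -0.51 ± 0.46 with its Gja9_null arrays 1.70 apart, and at 0.32 after local centring. Slc45a4, of a family described as proton-coupled sugar carriers, had -0.62, -0.62, 0.20 and 0.10 in Gja9_null, 0.06, 0.11, -0.06 and -0.04 in Gja9_het, and 0.45, 0.42, 0.36 and 0.34 in wildtype. Both mutant genotypes lay below all wildtype samples, with differences of -0.63 ± 0.29 in Gja9_null (-0.35 after local centring) and -0.38 ± 0.29 in Gja9_het. Its clones gave -0.15 ± 0.32 and -1.11 ± 0.42 in Gja9_null. The remaining members, Slc45a1 and Slc50a1, stood at -0.16 and -0.39.

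Of the 15 mitochondrial carriers, 0 were called in any comparison, and 4 had an unadjusted p under 0.05 between Gja9_null and Gja9_het, all lower in Gja9_null, where 11.3% of all features were. Against wildtype, 1 of the 15 was lower and 0 higher in Gja9_null at that mark, where 9.22% of all features were lower. In Gja9_het 1 was higher and 0 lower than wildtype, where 1.67% of all features were higher. Slc25a15, which exchanges ornithine for citrulline in the urea cycle, had -2.68, -2.39, -3.50 and -3.57 in Gja9_null, -1.64, -1.62, -1.44 and -1.38 in Gja9_het, and -2.47, -2.39, -2.01 and -1.89 in wildtype. The Gja9_het samples lay above all others, and 1 Gja9_null sample reached the wildtype range. The difference of Gja9_null was -1.52 ± 0.37 from Gja9_het (adjusted p = 0.091) and -0.85 ± 0.37 from wildtype (adjusted p = 0.394, -0.51 after local centring), and that of Gja9_het from wildtype was 0.67 ± 0.37. Without the first Gja9_null array, Slc25a15 was the 1 carrier gene called between Gja9_null and Gja9_het. That fit leaves Gja9_null on 1 array, the one with the lower Slc25a15 values, so its array spread is not read in that genotype.

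Slc25a23, the calcium-regulated carrier of ATP and phosphate, had -0.41, -0.30, 0.17 and -0.02 in Gja9_null, 0.92, 0.84, 1.34 and 1.35 in Gja9_het, and 0.62, 0.70, -0.05 and -0.01 in wildtype. Gja9_het lay above both other genotypes, which overlapped. Its difference from wildtype was 0.80 ± 0.34 in Gja9_het (adjusted p = 1, unadjusted p = 0.0329), and Gja9_null differed from Gja9_het by -1.25 ± 0.34 (adjusted p = 0.124). Slc25a40, a mitochondrial glutathione carrier, had -1.29, -1.44, -1.16 and -1.16 in Gja9_null, -0.26, -0.40, -0.39 and -0.57 in Gja9_het, and -0.62, -0.87, -0.86 and -1.05 in wildtype. Here the 3 genotypes did not overlap, with Gja9_het highest and Gja9_null lowest. Gja9_null differed from Gja9_het by -0.85 ± 0.27 (adjusted p = 0.177), and by -0.34 after local centring.

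Over the 15 mitochondrial carriers, the median difference from wildtype was -0.15 in Gja9_null and 0.21 in Gja9_het, with 6 and 11 genes above 0. All features had medians of -0.10 and 0.03. The class medians were -0.07 and 0.08 after local centring, and that of Gja9_null was 0.04 after quantile normalization. Slc25a5, an adenine nucleotide translocase that exchanges ADP for ATP, stood at 0.17 ± 0.35 in Gja9_null and 0.25 ± 0.35 in Gja9_het, with wildtype arrays 1.06 apart. Slc25a44, a carrier of branched-chain amino acids, lay above wildtype without overlap in Gja9_null, at 0.58 ± 0.30 (0.27 after local centring). Slc25a28, which brings iron into mitochondria, did so at 0.51 ± 0.28 (0.26 after local centring), while its relative Slc25a37, the mitoferrin of red cell precursors, stood at -0.43 ± 0.30. The other 9 members lay between -0.80 (Slc25a20, for acylcarnitines) and 0.35 (Slc25a26, for S-adenosylmethionine) in Gja9_null. Slc25a17, a family member of peroxisomes, was the gene whose clones disagreed most against wildtype, at 0.85 ± 0.41 and -1.02 ± 0.48.

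Among the 22 ion and metal carriers 0 were called. Against wildtype, 3 of 22 had an unadjusted p under 0.05, all lower in Gja9_null, where 9.22% of all features were. Of the 22 differences 8 were above 0, against 41.1% of all features. Slc11a2, the iron carrier DMT1, had -3.31, -3.15, -2.24 and -2.60 in Gja9_null, -1.77, -1.72, -0.61 and -0.91 in Gja9_het, and -1.52, -1.76, -0.53 and -0.55 in wildtype. All Gja9_null samples lay below all others, and Gja9_het overlapped wildtype. The difference was -1.73 ± 0.51 from wildtype (adjusted p = 0.199) and -1.57 ± 0.51 from Gja9_het (adjusted p = 0.180), and -0.95 from wildtype after local centring.

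Beside the iron and haem carriers stand the red cell genes of brain blood. Alas2, the haem synthesis enzyme of red cell precursors, stood at -1.45 ± 0.34 in Gja9_null, whereas the globin genes Hbb-b1 and Hba-a2 stood at 0.39 ± 0.41 and 0.17 ± 0.54. The summed linear signal of the 3 measured of 4 red cell markers ran between 12.3 and 15.6 in Gja9_null, 8.57 and 13.4 in Gja9_het, and 8.28 and 15.4 in wildtype, which overlap. Slc48a1, which moves haem out of lysosomes, had 0.24, 0.13, -0.24 and -0.39 in Gja9_null, -1.10, -1.33, -0.93 and -0.96 in Gja9_het, and -0.82, -1.01, -0.24 and -0.18 in wildtype. Gja9_null lay above Gja9_het without overlap, by 1.02 ± 0.33 (adjusted p = 0.186, 0.65 after local centring), and its difference from wildtype was 0.50 ± 0.33. The part of red cells in these values was not tested. Slc39a14, an importer of zinc, iron and manganese, had -1.43, -1.48, -2.22 and -2.11 in Gja9_null, -0.76, -0.69, -0.99 and -1.05 in Gja9_het, and -1.78, -1.67, -0.999 and -1.04 in wildtype. Gja9_null overlapped wildtype and lay below Gja9_het, with a difference of -0.94 ± 0.33 (adjusted p = 0.212) and with both clones below 0, at -0.62 and -1.26.

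Slc26a11, a carrier of sulfate and chloride, had -2.70, -2.71, -2.33 and -2.39 in Gja9_null, -1.47, -1.58, -1.68 and -1.68 in Gja9_het, and -1.64, -1.78, -1.61 and -1.67 in wildtype. Gja9_null lay below both other genotypes, which lay together, and the arrays of each genotype were at most 0.35 apart. The difference was -0.86 ± 0.26 from wildtype (adjusted p = 0.211) and -0.93 ± 0.26 from Gja9_het (adjusted p = 0.134). After local centring these were -0.76 and -0.82, with an adjusted p of 0.125 and 0.0708. Slc4a5, a sodium bicarbonate cotransporter of the choroid plexus, had -1.45, -1.53, -0.50 and -0.60 in Gja9_null, -0.31, -0.60, -0.39 and -0.67 in Gja9_het, and -0.27, -0.38, -0.17 and -0.32 in wildtype. Gja9_null lay below wildtype without overlap, mostly through its first array, at -0.74 ± 0.33 (adjusted p = 0.405), and at -0.36 after local centring. Ttr, the 1 measured of 3 choroid plexus markers, stood at 0.50 ± 0.34 in Gja9_null.

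Slc30a3, which loads zinc into synaptic vesicles, had -3.84, -4.68, -2.24 and -2.45 in Gja9_null, -2.12, -2.50, -2.35 and -2.44 in Gja9_het, and -2.33, -2.07, -2.73 and -2.73 in wildtype. Only the first Gja9_null array lay apart, 1.92 below the second, the widest such gap among the 94 genes in that genotype. The difference from wildtype was -0.84 ± 0.72, and -0.06 after local centring. Slc30a5, a zinc carrier of the secretory pathway, stood at 0.33 ± 0.28 in Gja9_null with clones at 1.14 ± 0.38 and -0.49 ± 0.33. Slc8a1, the sodium-calcium exchanger, stood at 0.15 ± 0.37, and Slc20a1, a phosphate carrier, at -0.30 ± 0.27 in Gja9_null (0.0047 after local centring) and -0.35 ± 0.27 in Gja9_het. The other 14 members lay between -0.83 and 0.35 in Gja9_null and between -0.35 and 0.39 in Gja9_het.

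Of the vesicular families 3 genes were measured, and 0 were called or reached an unadjusted p under 0.05 by limma. Slc32a1, which loads GABA and glycine into inhibitory synaptic vesicles, had 0.01, -0.27, -0.86 and -1.12 in Gja9_null, 0.02, -0.04, -0.43 and -0.45 in Gja9_het, and 0.21, 0.16, -0.69 and -0.75 in wildtype. In all genotypes array 1 lay above array 2 and the genotypes overlapped, with a difference of -0.29 ± 0.38 in Gja9_null and 0.04 ± 0.38 in Gja9_het. Gad1, which makes GABA, stood at -0.47 ± 0.61 and -0.29 ± 0.61. Slc17a2 and Slc17a3, which belong to the family of vesicular glutamate carriers by sequence but are known as phosphate and organic anion carriers, stood at -0.07 ± 0.46 and -0.59 ± 0.42 in Gja9_null. Neuron markers were measured for 5 of 8 genes, and their summed linear signal ran between 13.9 and 24.7 in Gja9_null, 20.2 and 24.3 in Gja9_het, and 19.4 and 24.3 in wildtype. The members of that list went apart in Gja9_null: Nefm stood at -1.74 ± 0.53 (adjusted p = 0.217, without overlap with wildtype) and Syt1 at -0.77 ± 0.58, while Nefl stood at 0.23 ± 0.38, Tubb3 at -0.01 ± 0.39 and Map2 at -0.30 ± 0.34. Their part in the vesicular carrier values was not tested.

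**Figure D3:**
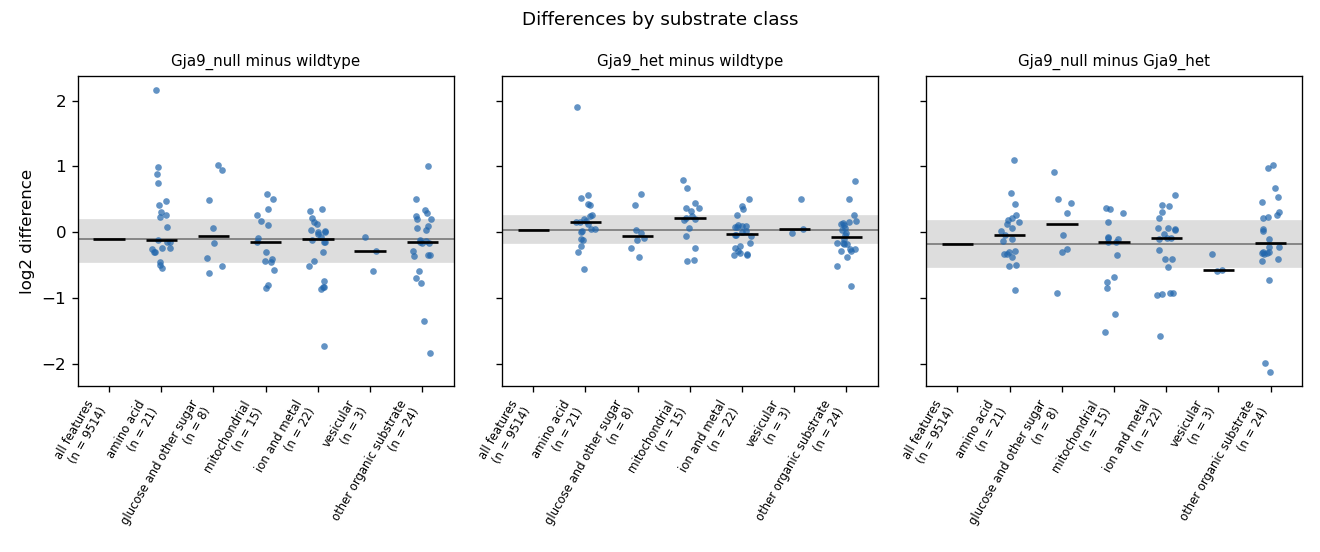
Log2 differences of the carrier genes by substrate class in the 3 comparisons (points are genes, black bars class medians), with the median and quartiles of all 9514 features as the grey line and band. The class medians lie inside the band except that of the 3 vesicular genes between Gja9_null and Gja9_het, which is -0.57 and just below it.

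Among the 24 carriers of other organic substrates, 0 were called, and in Gja9_null 1 was higher and 2 were lower than wildtype at an unadjusted p under 0.05. Of all features 11.6% passed that mark, a share close to that of these carriers. Slc16a3, the lactate exporter MCT4 of glycolytic cells and astrocytes, had -4.29, -4.52, -3.41 and -3.83 in Gja9_null, -1.78, -1.91, -2.23 and -2.19 in Gja9_het, and -2.39, -2.30, -2.02 and -1.96 in wildtype. All Gja9_null samples lay over 1 unit below all others, while Gja9_het and wildtype overlapped. The difference was -1.84 ± 0.42 from wildtype (adjusted p = 0.100) and -1.98 ± 0.42 from Gja9_het (adjusted p = 0.0707). After local centring these were -1.04 and -1.09, with an adjusted p of 0.0771 and 0.0501. Slc16a3 passed the test in both comparisons when sample Gja9_null 3 was left out, which is the Gja9_null sample nearest the other genotypes. It passed on leaving out no other single sample. Slc16a1, the monocarboxylate carrier MCT1, had 0.20, 0.14, -0.29 and -0.39 in Gja9_null, 0.26, 0.12, -0.38 and -0.40 in Gja9_het, and 0.03, -0.08, 0.34 and 0.03 in wildtype. The genotypes overlapped, with a difference of -0.17 ± 0.32 in Gja9_null and -0.18 ± 0.32 in Gja9_het. Bsg, the chaperone of both, stood at 0.20 ± 0.35 and -0.19 ± 0.35.

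Slc22a17, a receptor for the iron-binding protein lipocalin 2, had -2.72, -2.42, -1.53 and -1.87 in Gja9_null, 0.33, 0.21, -0.44 and -0.14 in Gja9_het, and 0.25, 0.51, -2.16 and -1.75 in wildtype. Gja9_null lay below Gja9_het without overlap, and the wildtype arrays were split, 2.33 apart, with one beside each mutant. The difference of Gja9_null was -2.13 ± 0.69 from Gja9_het (adjusted p = 0.182) and -1.06 after local centring. Slc22a15, an organic cation carrier, had -0.15, -0.49, -0.78 and -0.91 in Gja9_null, 0.31, 0.28, 0.14 and -0.15 in Gja9_het, and 0.41, 0.33, 0.05 and -0.04 in wildtype. Gja9_null lay below all other samples, with a difference of -0.77 ± 0.33 from wildtype (adjusted p = 0.383).

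Slc35f5, of the nucleotide sugar carrier family, had -0.89, -0.97, -1.17 and -1.32 in Gja9_null, -2.16, -2.37, -1.73 and -1.98 in Gja9_het, and -2.47, -2.77, -1.36 and -1.77 in wildtype. Gja9_null lay above both without overlap, at 1.01 ± 0.37 from wildtype (adjusted p = 0.319) and 0.97 ± 0.37 from Gja9_het (adjusted p = 0.242), and at 0.65 and 0.39 after local centring. Slc27a1, a fatty acid carrier, stood at -0.35 ± 0.47 in Gja9_null and -0.81 ± 0.47 in Gja9_het, where its arrays lay 1.69 apart. Slc10a7 stood at 0.20 ± 0.33 (-0.14 after local centring) and 0.50 ± 0.33. The other 16 members lay between -0.70 and 0.33 in Gja9_null and between -0.37 and 0.26 in Gja9_het. Slc9a3r2, the scaffold, had -2.13, -2.12, -2.10 and -2.36 in Gja9_null, -1.77, -1.82, -1.70 and -1.84 in Gja9_het, and -1.44, -1.59, -1.80 and -1.90 in wildtype. Gja9_null lay below both without overlap, at -0.49 ± 0.28 from wildtype.

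Clones that name the same gene give separate readings of it, although no clone sequence was at hand to check which transcript each reads. Of the 94 genes, 34 had over 1 clone, 25 with 2 and 9 with 3, for 137 clones in all. Their clones lay on both sides of 0 in 14 of 34 genes for Gja9_null against wildtype, in 17 for Gja9_het against wildtype and in 16 for Gja9_null against Gja9_het. The median gap between the highest and lowest clone of a gene was 0.50 in the first comparison, and in 6 genes it was over 1. Tested alone, 0 clones were called by limma. Of the 14 genes with an unadjusted p under 0.05 in Gja9_null, only Slc6a6 and Slc45a4 had a second clone. In both the clones lay on 1 side of 0, although those of Slc45a4 were unequal, at -0.15 ± 0.32 and -1.11 ± 0.42. These genes were picked by the average of the same clones, which favours clones of 1 sign, so the agreement is no separate support.

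**Figure D4:**
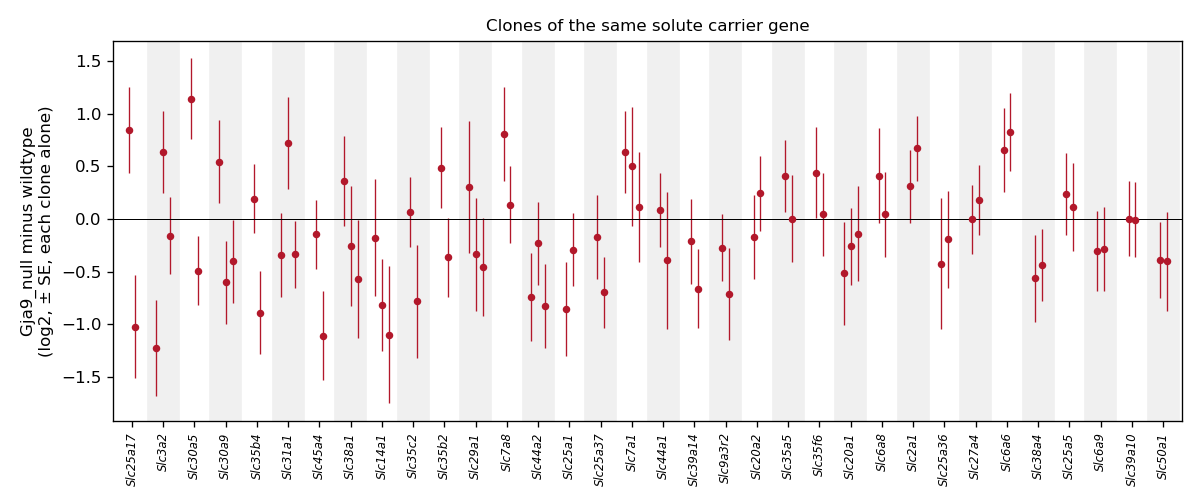
Gja9_null minus wildtype (log2, ± SE) of each clone of the 34 genes with 2 or 3 clones, sorted by the gap between clones. Clones of Slc25a17, Slc3a2 and Slc30a5 lie on opposite sides of 0, while both clones of Slc6a6 lie above it.

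A difference can also be set against the gaps between arrays of the genotypes compared. It was larger than both gaps in 20 of 94 genes (21.3%) for Gja9_null against wildtype, where 22.7% of all features were. The counts were 21 genes (22.3%, all features 17%) for Gja9_het against wildtype and 25 genes (26.6%, all features 32.5%) for Gja9_null against Gja9_het. Slc7a6 is among the first 20, with a difference of 2.16 against a wildtype gap of 1.70.

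Other proteins that carriers work with were taken from fixed lists, and 0 of their measured members were called by limma in any comparison. At an unadjusted p under 0.05 in Gja9_null against wildtype there were 3 in the list of other transporters, 1 among the partners and 0 in the remaining lists, beside 11.6% of all features. Of the sodium pump 3 of 6 subunits were measured, with Atp1b1 at 0.37 ± 0.30 in Gja9_null and -0.29 ± 0.30 in Gja9_het. The vacuolar proton pump, which drives vesicular carriers, had 14 measured subunits with median differences of -0.02 and -0.02, and Atp6v1e1 stood at 0.63 ± 0.31 in Gja9_null. Of 33 symbols listed as other transporters 27 were measured. That list takes in Abca to Abcg symbols by name, whether or not the protein is a transporter. Vdac1, the voltage-gated channel of the outer mitochondrial membrane, stood at 1.09 ± 0.34 in Gja9_null. Abcf1, which is listed by its name only, stood at -1.22 ± 0.36 and Abcg5, a sterol exporter, at -1.03 ± 0.34. Of 21 partners and regulators 10 were measured, among them Wnk2, a kinase of the family that controls chloride cotransporters, at 0.81 ± 0.33 in Gja9_null and 0.999 ± 0.33 in Gja9_het. Of 10 enzymes of transmitter amino acids 7 were measured, and Shmt1, which interconverts serine and glycine, stood at -0.07 ± 0.55 in Gja9_null and 1.38 ± 0.55 in Gja9_het.

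How many carriers lay above or below wildtype depended on scaling. With the deposited scale 38 of 94 Gja9_null differences were above 0, and with quantile normalization 48 were, as the median of all features moved to 0.02. The split of genes at an unadjusted p under 0.05 was 7 higher and 7 lower, 8 and 4 after quantile normalization, 8 and 3 after median centring, and 11 and 9 after local centring. Differences from wildtype in Gja9_null changed sign in 10 of 94 genes with quantile normalization, 3 with median centring and 26 with local centring, in Gja9_het in 9, 4 and 11, and between Gja9_null and Gja9_het in 13, 11 and 19. None of these genes had an unadjusted p under 0.05. Of the genes that did, local centring made the difference smaller by over 1.5 times in 9 of 14 for Gja9_null against wildtype and in 9 of 15 for Gja9_null against Gja9_het. The class medians moved too and turned in sign in several cases: in Gja9_null against wildtype, the sugar carriers had -0.05, and 0.15 with quantile normalization and 0.36 with local centring, and the ion and metal carriers -0.10, and 0.08 with quantile normalization.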

How the data were processed

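Total RNA of mouse brain, 60 micrograms per sample, was extracted with Trizol and labelled directly with Cy5 (odd sample numbers) or Cy3 (even ones), per the labels' protocols. The label field was followed for 2 samples, Gja9_null 1 and wildtype 3, whose labelling protocol gives the opposite dye. The deposited values are log2 signals: taken out of the log, they average 1 in every sample. How the authors analysed the images, corrected background and dye and filtered probes, and on which genome build, is a matter not given in the sources used here. The table lists 28704 probes, and 13443 hold values, the same ones in all 12 samples. Of these 10356 name 1 gene, 560 several and 2527 none. Symbols were updated through a mouse RefSeq table by gene number, which matched 10263 probes, and 8 probes that name an Slc gene beside another gene were not used. Sample medians lay between -0.98 and -0.81 and no further centring was applied. Arrays have no read depth, and how far a spot rose over its background is unknown.

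Which samples shared an array was read from the correlation of sample 1 minus 3 with sample 2 minus 4 across probes, which was 0.933 in Gja9_null, 0.919 in Gja9_het and 0.940 in wildtype. The design text calls the samples of a genotype biological replicates. They were counted as separate animals, although no label says so outright, and otherwise the p-values would measure technical spread. All p-values come from 1 two-sided limma 3.58.1 fit (lmFit, eBayes; R 4.3.3) over 9514 features and 12 samples that had terms for genotype and dye and a random block for array (consensus correlation 0.927, 14.5 degrees of freedom, 6.53 of them from the prior). The SEs come from the same fit, which applies the consensus correlation to all features, so they need not reflect the array gaps of a single gene. Its degrees of freedom count all 12 samples, although each genotype lay on only 2 arrays. Benjamini-Hochberg adjustment ran over every feature, and an adjusted p under 0.05 counted as a call. Deviations of same-numbered Gja9_het and wildtype samples from their genotype means correlated at 0.127, 0.237, 0.185 and 0.172, each over 0.1. Samples of an array deviate together, so these 4 values are not separate, and they cannot show whether the numbers pair samples. Nothing in the labels says what a number shares. Simulated data with known changes were used to test this fit. Local centring removes, sample by sample, the median by which the 50 probe numbers on each side deviate from their means. The other alternatives covered the array block and pairing, the replicate number, quantile and median scaling, dim probes, the samples in the fit, single probes and leaving out each sample.

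The genes, substrate classes, partner and marker lists and named genes were chosen with earlier results of these data known. Named genes are every called one, the 3 of smallest p per class and comparison, and 33 listed symbols, 14 of which were measured, which made 43. The listed symbols are carriers of known weight in brain and a few non-carriers that the name pattern takes in, such as Slc9a3r2. Clones are named only by gene, as the files used here hold no clone sequence, and no sequence is shown. Tables and figures were made with Python 3.11.15, numpy 2.4.6, pandas 2.3.3 and matplotlib 3.10.9.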

Additional observations from a re-analysis of the deposited data

Results flagged for a closer look

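Of 129 combinations of a named gene and a genotype checked, 1 held a sample far from the other 3. Slc9a3r2, the scaffold gene, had -2.36 in Gja9_null 4, against -2.13 to -2.10 in the other Gja9_null samples, and the gap makes up 0.861 of the range of the group, above Dixon's critical value for 4 samples. Chance alone marks about 1 in 20 groups of 4 independent values, but samples that share an array are not independent, so that rate need not hold here.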

How the results depend on the processing

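The count of carrier genes called was 1 against wildtype in Gja9_null, 0 against wildtype in Gja9_het, 0 between Gja9_null and Gja9_het, and 0 by the F-test. In that order it was 18, 0, 19 and 23 with no array block and 71, 57, 72 and 85 with the other array pairing. Without a block, samples that share an array count as independent, although the main fit gave them a consensus correlation of 0.927. The other pairing puts samples of different arrays in 1 block, and its consensus correlation was -0.908. Neither set of counts allows for how samples on the same array deviate together. Median centring gave 1, 0, 0 and 0. Dropping the first Gja9_null array, which leaves that genotype on 1 array, gave 0, 0, 1 and 1 (Slc25a15). The counts were 0 throughout on array means, with quantile normalization, local centring, the dimmest 25% of probes left out, only the 2 genotypes compared (no F-test) and every probe tested alone. Leaving out single samples gave 0 to 1, 0, 0 to 1 and 0 to 1, and the gene called, without Gja9_null 3, was Slc16a3. Over all features the counts of 31, 0, 26 and 31 became 1464, 70, 2119 and 1997 with no array block, 2, 0, 0 and 0 on array means, 7122, 5747, 7543 and 8592 with the other array pairing, 5, 0, 0 and 1 with quantile normalization, 23, 0, 0 and 19 with median centring, 56, 1, 134 and 84 with local centring, 7, 0, 0 and 8 without dim probes, 51, 0, 95 and 55 without the first Gja9_null array, 17, 0, 0 and 22 with every probe alone, and 3, 0 and 1 with only the 2 genotypes. Leaving out single samples gave 13 to 25, 0, 0 to 20 and 10 to 33.

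Deviations of same-numbered samples from their genotype means correlated between -0.101 and -0.0666 for Gja9_null with wildtype and between 0.0111 and 0.05 for Gja9_null with Gja9_het. These values likewise cannot show whether the numbers pair samples. With the replicate block in place of dye and array, the colours of an array count as independent. The counts of carrier genes were then 19, 1, 21 and 23, and over all features 1770, 135, 2490 and 2396.

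The Slc7a6 difference of Gja9_null from wildtype kept its sign under all alternatives run. It was no longer past the threshold at 2.159 on array means, without dim probes, with 2 genotypes and with every probe alone, at 2.021 with quantile normalization, 1.871 with local centring, 2.24 without the first Gja9_null array, and between 2.127 and 2.194 on leaving out single samples. That of Gja9_het from wildtype, 1.896, passed with the other pairing and the replicate block, and that of Gja9_null from Gja9_het, 0.2638, with the other pairing. Neither of these fits allows for how samples on the same array deviate together. The cause of these shifts was not tested. Signal over background was not read, so no limit from dim spots can be given.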
